A study of Mus musculus with 19 samples.

Results

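Immediate-early genes and heat shock genes were described in endothelial cells sorted from mouse lymphoid tissue. The set was given as a list of 37 genes, and a gene's value was the mean over the array probe sets that carry its symbol alone. By that rule 36 of the 37 genes were measured, 31 of them immediate-early and 5 of them heat shock genes, among 19938 named genes in all. Hspa1b had no probe set of its own on this array.

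The study hybridised RNA from 19 sorts of BALB/c endothelium, each from an equal mixture of male and female adult mice aged 6 to 8 weeks, to Affymetrix whole-transcript arrays. High endothelial cells (HEC), which line the venules where lymphocytes leave the blood, and capillary endothelial cells were sorted from 3 sources. The peripheral lymph node sorts filled 4 HEC and 3 capillary arrays, the mesenteric ones 4 and 2, and those of Peyer's patches (lymphoid tissue of the intestine) 3 and 3. Mesenteric HEC came from 2 gates with 2 arrays each, MAdCAM1+/PNAd+ and MAdCAM1+, named for the addressins that lymphocytes bind. No treatment or engineered allele was listed for any group. How many mice made up a sort was not given in the sources used here, and neither was whether arrays of a group came from separate mice, so p-values measure the spread between these arrays, which may be technical.

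Immediate-early genes are switched on within minutes of a stimulus, without new protein synthesis, when kinase cascades reach transcription factors such as SRF and CREB that already sit on their promoters. Their products include transcription factors, which start a later wave of transcription, and feedback proteins, which destroy mRNAs or silence the kinases. In endothelium a subset, Klf2 and Klf4 above all, is held up by laminar blood flow. Heat shock genes encode chaperones, and the inducible ones are driven by the factor HSF1 when unfolded protein accumulates. Both families are also known to respond to the isolation of cells from tissue.

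The deposited values are log2 signals that had been centred probe set by probe set, so a value is a level relative to that gene's own unstated baseline. A difference of 1 is 2-fold, levels of different genes cannot be compared, and a value near 0 does not show absence. The sort labels were borne out by markers. All 6 HEC markers, such as the addressin gene Madcam1, were higher and all 6 capillary markers lower in HEC of each tissue. Peripheral capillary arrays 1 and 2 stood apart in that their median over the 6 HEC markers was 1.06 and 0.98, against 0.10 on array 3 and -0.60 to -0.08 on the other capillary arrays. Counts and calls were therefore also computed without those 2 arrays. A lower signal in a sorted population may be fewer cells with the transcript or less transcript in each cell, which cannot be told apart.

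**Figure D1:**
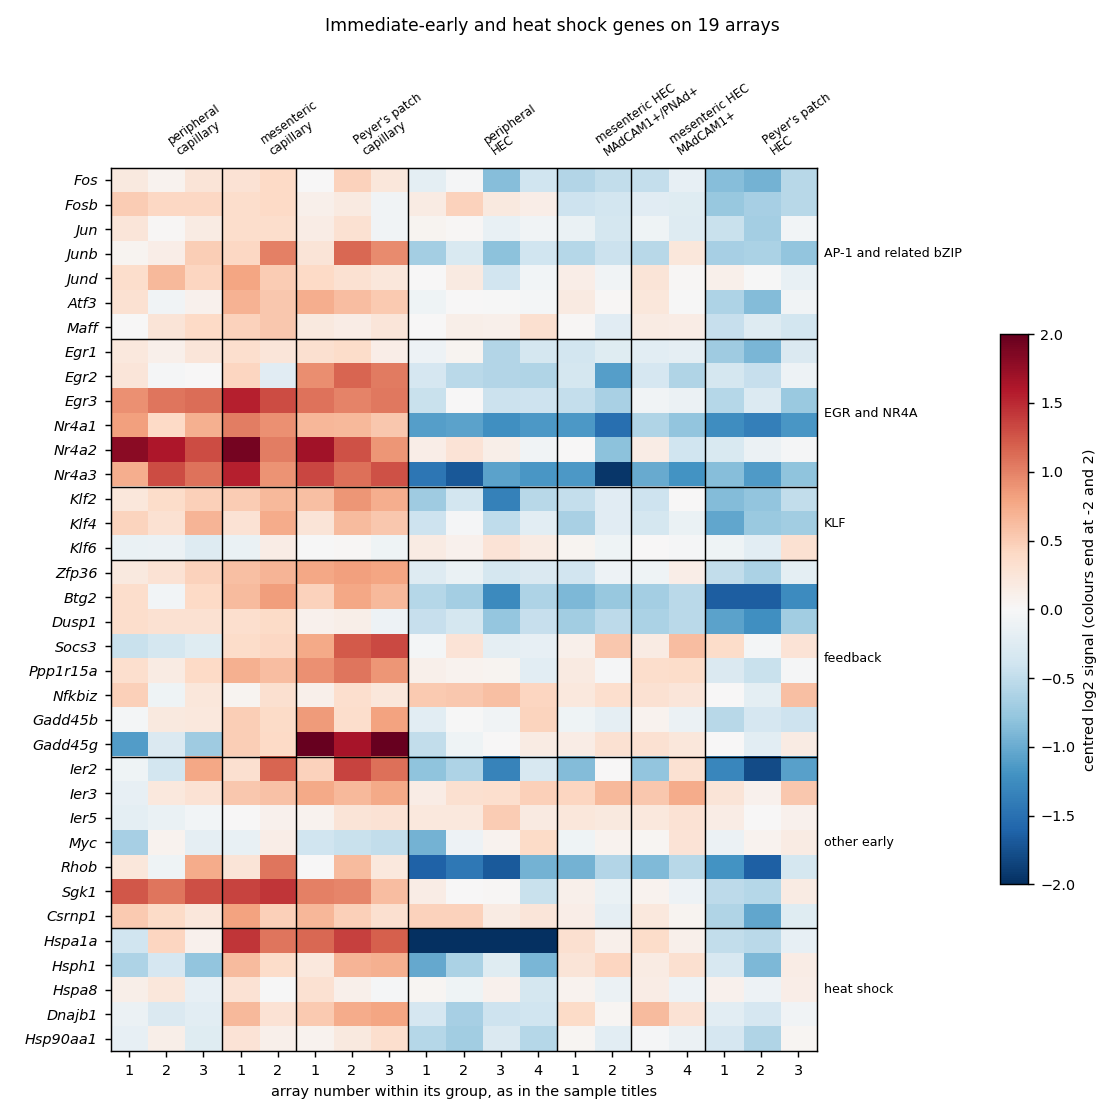
Heat map of the centred log2 signal of the 36 measured genes (rows, grouped by role) on the 19 arrays (columns, grouped by tissue and cell type); colours end at -2 and 2. The NR4A genes, Egr3, Btg2 and Sgk1 divide the capillary from the HEC columns in every tissue, and Hspa1a is darkest on the 4 peripheral HEC arrays (-3.10 to -2.0).

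Most of the measured genes were lower in HEC than in capillary cells. As the mean over the 3 tissues, 29 of the 36 genes were lower in HEC, 1 was higher and 6 did not pass the test (limma, Benjamini-Hochberg adjusted p under 0.05 over all genes). These 30 genes are 83.3% of the set, against 33.9% of all genes called and 15.9% called lower. The median difference over the set was -0.61, against -0.014 over all genes. For 13 genes every one of the 11 HEC arrays lay below every one of the 8 capillary arrays, which held for 4.45% of all genes. These were Fos, Egr1, Egr3, Nr4a1, Nr4a2, Nr4a3, Klf2, Klf4, Zfp36, Btg2, Dusp1, Rhob and Sgk1.

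The 3 tissues gave different numbers of calls. In peripheral nodes 18 genes were lower and 3 higher, or 58.3% of the set against 24.6% of all genes called and 11.4% called lower. In mesenteric nodes 24 were lower and 0 higher, against 15.2% of all genes called and 7.31% called lower. The count there was 14 without capillary array 1 and 13 without capillary array 2 of that tissue. In Peyer's patches 30 were lower and 0 higher, against 19.5% of all genes called and 10.6% called lower. Without peripheral capillary arrays 1 and 2, 14 genes were called in peripheral nodes, all lower, while the counts in the other tissues were the same. The calls for Fos, Jund, Egr1, Egr2, Klf6, Gadd45g, Ier5 and Hsp90aa1 were lost there and 1 other gene passed. The lower call stood in all 3 tissues for 16 of the 36 genes, against 4.82% of all genes. These were Fos, Junb, Egr1, Egr2, Egr3, the 3 NR4A genes, Klf2, Klf4, Zfp36, Btg2, Dusp1, Rhob, Sgk1 and Hspa1a. Klf6, Nfkbiz, Ier5, Myc and Hspa8 were lower in none. Every alternative fit kept 28 of the 30 calls of the mean over tissues (not Hsph1 and Ier5), 12 of 21 of the peripheral, 9 of 24 of the mesenteric and 26 of 30 of the Peyer's patch calls.

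**Figure D2:**
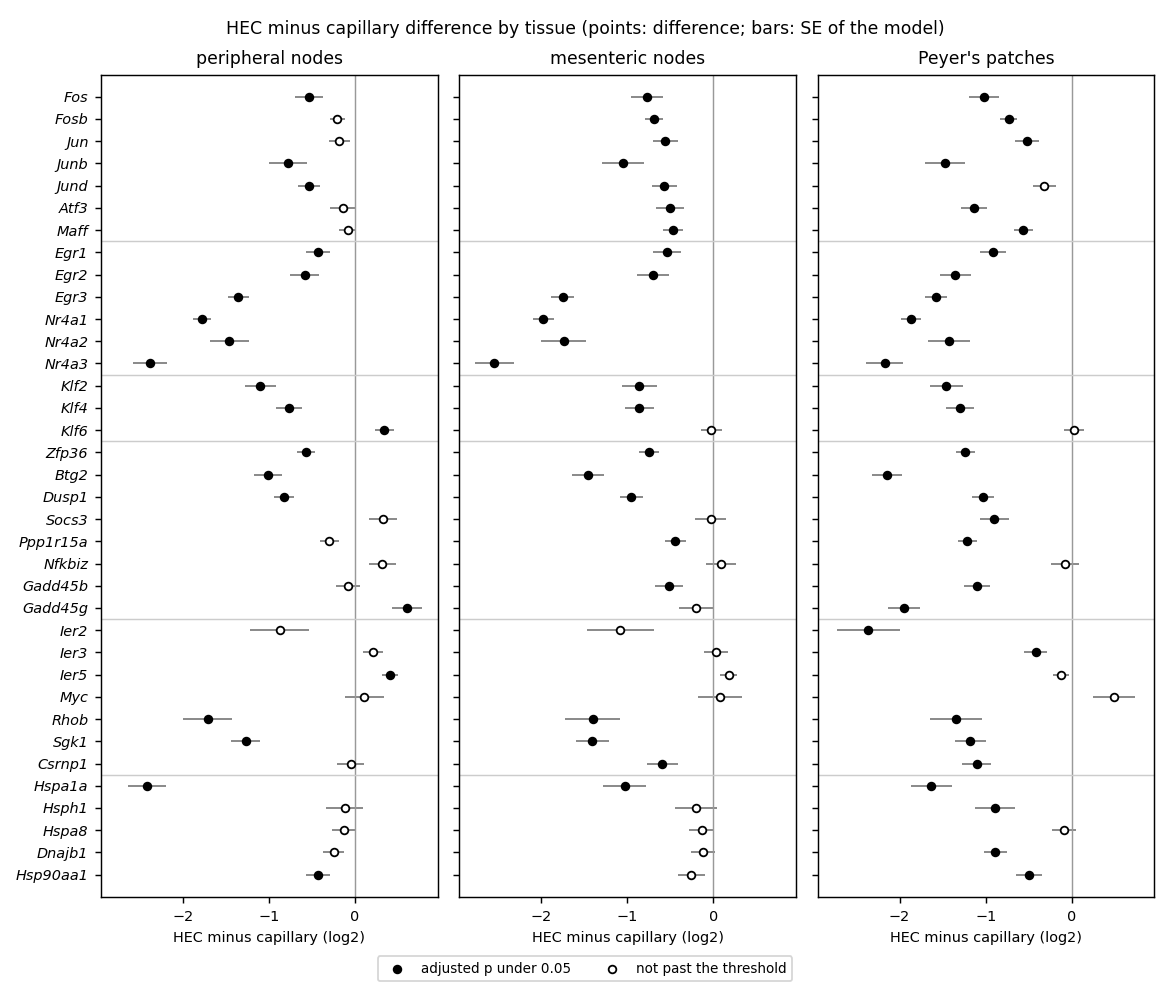
Difference HEC minus capillary (log2) of each gene, with a panel for each tissue and the SE of the model as bars; filled points passed the test. The 6 EGR and NR4A genes lie left of 0 in all 3 panels, and Gadd45g lies at 0.60 ± 0.18 in peripheral nodes and -1.95 ± 0.19 in Peyer's patches.

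The EGR and NR4A transcription factors had a median difference of -1.55 between HEC and capillary cells, the lowest of the 6 role groups. All 6 were called lower in each of the 3 tissues, where 11.4% (peripheral), 7.31% (mesenteric) and 10.6% (Peyer's patch) of all genes were called lower. In each tissue the HEC and capillary arrays did not overlap for any of the 6. With 2 to 4 arrays a group such a gap is common, and HEC lay below capillary arrays without overlap for 19.6% (peripheral), 18.5% (mesenteric) and 13.9% (Peyer's patch) of all genes. The NR4A proteins are nuclear receptors without an established natural ligand, and their activity is thought to follow largely their amount. The EGR proteins are zinc finger factors that bind GC-rich promoters. The calls for Egr1 and Egr2 in peripheral and in mesenteric nodes were lost when some single arrays were left out, whereas those for Egr3 and the NR4A genes held in every alternative.

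Nr4a3 had the largest difference between HEC and capillary cells as the mean over tissues. On the capillary arrays it read 0.73, 1.31 and 1.08 (peripheral), 1.55 and 0.90 (mesenteric) and 1.34, 1.11 and 1.27 (Peyer's patch). On the HEC arrays it read -1.45, -1.69, -1.06 and -1.16 (peripheral), -1.15 and -1.94 (mesenteric MAdCAM1+/PNAd+), -1.0 and -1.19 (mesenteric MAdCAM1+) and -0.86, -1.14 and -0.81 (Peyer's patch). The highest of the 11 HEC values was -0.81 and the lowest of the 8 capillary values 0.73. The mean difference was -2.37 ± 0.12 (adjusted p = 6.68e-11), or 5.15-fold lower in HEC.

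Nr4a1 read 0.82, 0.39 and 0.72 (peripheral), 1.02 and 0.91 (mesenteric) and 0.66, 0.65 and 0.54 (Peyer's patch) on the capillary arrays. The HEC arrays gave -1.10, -1.07, -1.22 and -1.15 (peripheral), -1.14 and -1.51 (mesenteric MAdCAM1+/PNAd+), -0.60 and -0.80 (mesenteric MAdCAM1+) and -1.24, -1.36 and -1.16 (Peyer's patch). The MAdCAM1+ mesenteric sorts were the highest HEC values and still lay below every capillary array. The difference was -1.87 ± 0.07 (adjusted p = 4.2e-13), 3.67-fold lower, and it was -1.78 ± 0.11 in the peripheral, -1.98 ± 0.12 in the mesenteric and -1.87 ± 0.12 in the Peyer's patch sorts. The interaction of Peyer's patches with peripheral nodes, -0.09 ± 0.16, did not pass (adjusted p = 0.759).

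Nr4a2 read 1.80, 1.61 and 1.31 (peripheral), 1.91 and 1.03 (mesenteric) and 1.67, 1.28 and 0.89 (Peyer's patch) on the capillary arrays and 0.13, 0.27, 0.12 and -0.07 (peripheral), 0.00 and -0.82 (mesenteric MAdCAM1+/PNAd+), 0.15 and -0.39 (mesenteric MAdCAM1+) and -0.31, -0.11 and -0.03 (Peyer's patch) on the HEC arrays. The groups did not overlap, although the mesenteric arrays of each cell type spread widely. The difference was -1.54 ± 0.14 (adjusted p = 1.18e-07).

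The promoters of the 3 NR4A genes are shown because they shared a feature the choice of genes did not use. Promoters of 250 bases before to 50 after the start site were taken from RefSeq (GRCm38.p6) and were found for 30 of the 37 genes, with 46 annotated starts. TGACG, the core of the site that the cAMP-responsive factor CREB binds, was searched on both strands. It was present in 17 of the 30 genes and, start by start, in 23 of their 46 promoters, against 20.8% of all 32851 promoters. Promoters with at least 4 matches made up 0.231% of all and, among these genes, belonged to Nr4a1, Nr4a2 and Nr4a3 only. Each of these 3 has exactly 4 matches, the cut-off used, so the share is a description and not a test. Capitals mark each match, as TGACG or as CGTCA where it lies on the other strand. The windows are chr15:101266596-101266895 on the plus strand (Nr4a1), chr2:57123954-57124253 on the minus strand (Nr4a2) and chr4:48045055-48045354 on the plus strand (Nr4a3).
Nr4a1: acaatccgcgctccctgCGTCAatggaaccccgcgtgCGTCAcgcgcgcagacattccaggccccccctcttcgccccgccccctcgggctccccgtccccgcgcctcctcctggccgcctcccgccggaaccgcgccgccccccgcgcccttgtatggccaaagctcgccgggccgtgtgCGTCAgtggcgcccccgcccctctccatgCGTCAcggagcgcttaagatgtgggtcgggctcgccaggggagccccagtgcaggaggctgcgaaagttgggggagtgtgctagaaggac
Nr4a2: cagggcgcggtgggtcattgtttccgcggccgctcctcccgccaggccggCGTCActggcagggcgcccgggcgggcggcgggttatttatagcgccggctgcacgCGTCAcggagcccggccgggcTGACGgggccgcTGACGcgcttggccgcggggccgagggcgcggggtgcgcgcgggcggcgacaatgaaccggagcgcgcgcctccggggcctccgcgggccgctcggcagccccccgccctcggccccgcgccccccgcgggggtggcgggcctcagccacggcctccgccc
Nr4a3: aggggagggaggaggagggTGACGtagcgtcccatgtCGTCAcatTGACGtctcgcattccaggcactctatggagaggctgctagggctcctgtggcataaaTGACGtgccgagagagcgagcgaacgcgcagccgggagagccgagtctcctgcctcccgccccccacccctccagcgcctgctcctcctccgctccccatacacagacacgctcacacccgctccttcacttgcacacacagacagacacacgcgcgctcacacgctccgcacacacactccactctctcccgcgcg
A match describes the letters in these windows and was not tested as a binding site.

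Egr3 read 0.92, 1.06 and 1.12 (peripheral), 1.56 and 1.30 (mesenteric) and 1.09, 1.0 and 1.06 (Peyer's patch) in capillary cells and -0.45, 0.00, -0.43 and -0.41 (peripheral), -0.47 and -0.65 (mesenteric MAdCAM1+/PNAd+), -0.06 and -0.11 (mesenteric MAdCAM1+) and -0.57, -0.27 and -0.75 (Peyer's patch) in HEC. The lowest capillary value was 0.92, and the highest HEC value was the 0.00 of peripheral array 2. The difference was -1.56 ± 0.08 (adjusted p = 2.35e-11). Egr1 differed less, at -0.63 ± 0.09, with HEC values from -0.92 to 0.06 (median -0.29) and capillary values from 0.10 to 0.37 (median 0.24).

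Egr2 varied among capillary beds. Its capillary values were 0.24, -0.03 and 0.00 (peripheral), 0.43 and -0.22 (mesenteric) and 0.93, 1.17 and 1.04 (Peyer's patch), and its HEC values -0.34, -0.54, -0.59 and -0.59 (peripheral), -0.35 and -1.10 (mesenteric MAdCAM1+/PNAd+), -0.34 and -0.59 (mesenteric MAdCAM1+) and -0.36, -0.46 and -0.11 (Peyer's patch). All 3 Peyer's patch capillary arrays were above every other array, and Egr2 was 0.97 ± 0.18 higher there than in peripheral capillaries (adjusted p = 0.00265) and 0.94 ± 0.20 higher than in mesenteric capillaries (adjusted p = 0.0182). Neither call was kept under every alternative, and the first missed the threshold once peripheral capillary arrays 1 and 2 were dropped. HEC minus capillary was -0.88 ± 0.10 as the mean over tissues.

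The promoters of Egr2 and Zfp36 are shown as the 2 of 30 genes whose window held a CArG box, the site of SRF. It occurred in 5 of the 46 promoters of the 30 genes, against 1.63% of all promoters on either strand. Capitals mark it. Zfp36 is the mRNA decay factor described below, and 4 of the 5 annotated Egr2 starts had a match. Overlapping Egr2 windows hold the same match, so the 5 promoters are not 5 separate sites. The Egr2 window is chr10:67537619-67537918 on the plus strand and the Zfp36 window chr7:28379179-28379478 on the minus strand.
Egr2: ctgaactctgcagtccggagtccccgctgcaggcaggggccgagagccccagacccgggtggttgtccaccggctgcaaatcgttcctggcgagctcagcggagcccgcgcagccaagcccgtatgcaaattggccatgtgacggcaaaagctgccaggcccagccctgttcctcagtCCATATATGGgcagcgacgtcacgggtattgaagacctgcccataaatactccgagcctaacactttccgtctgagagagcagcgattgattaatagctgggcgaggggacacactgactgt
Zfp36: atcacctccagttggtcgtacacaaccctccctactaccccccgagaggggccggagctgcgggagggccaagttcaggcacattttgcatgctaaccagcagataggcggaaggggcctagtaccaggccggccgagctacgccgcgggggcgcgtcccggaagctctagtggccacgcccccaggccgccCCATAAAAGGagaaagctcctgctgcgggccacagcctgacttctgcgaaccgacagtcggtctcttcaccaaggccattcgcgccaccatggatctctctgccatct
Both genes were lower in HEC of each tissue.

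**Figure D3:**
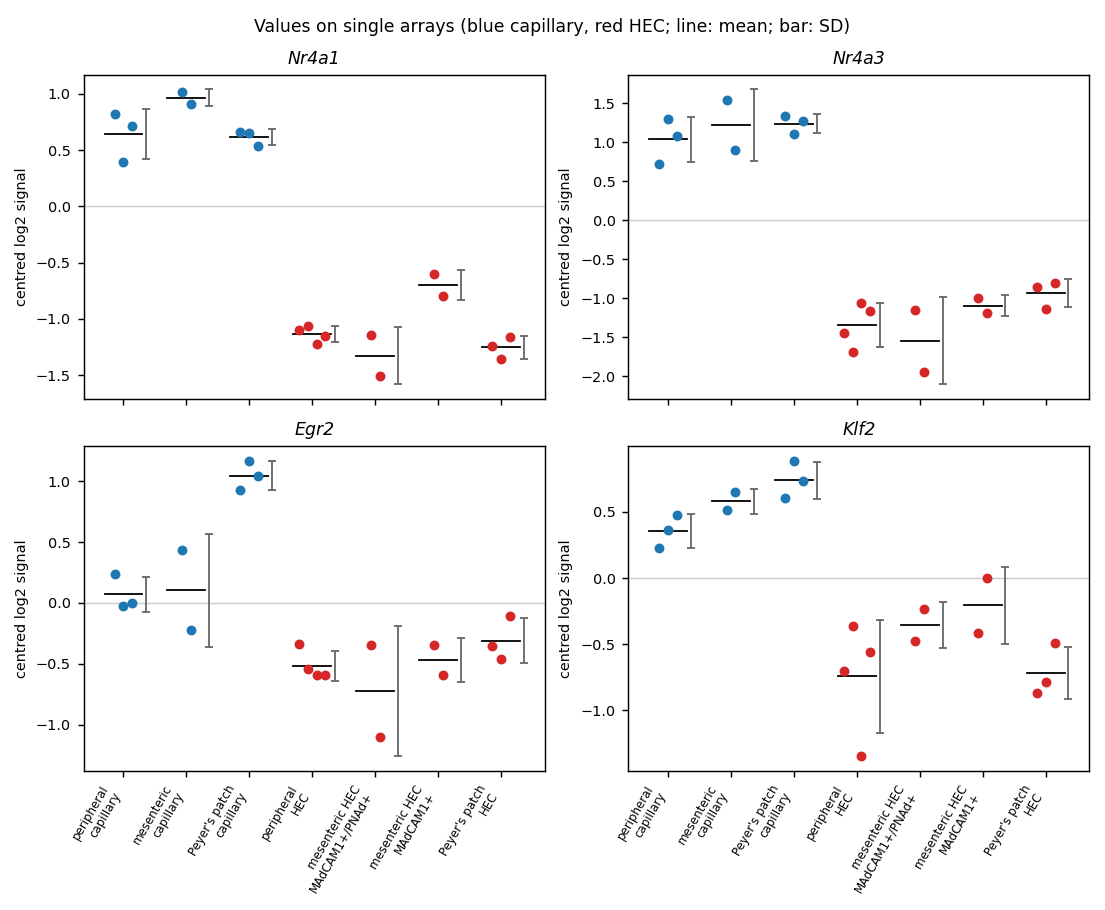
Centred log2 signal of Nr4a1, Nr4a3, Egr2 and Klf2 on single arrays by group (blue capillary, red HEC), with the group mean as a line and the SD as a bar. For Nr4a1, Nr4a3 and Klf2 every red point lies below every blue point, and the blue Peyer's patch points of Egr2 (0.93 to 1.17) stand above the other capillary points.

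AP-1 is the dimeric factor formed by FOS and JUN proteins, with ATF3 and the small MAF protein MAFF as related partners. All 7 genes of this group were lower in HEC as the mean over tissues, against 15.9% of all genes. The peripheral comparison called 3 of 7 lower, the mesenteric 7 of 7 and the Peyer's patch 6 of 7. Of all genes these comparisons called 11.4%, 7.31% and 10.6% lower. The differences were smaller than for the NR4A genes. Junb had the largest, -1.10 ± 0.13 (adjusted p = 3.43e-06), with HEC values from -0.81 to 0.22 (median -0.57) and capillary values from 0.05 to 1.14 (median 0.45). Fos differed by -0.78 ± 0.10 and its HEC values, from -0.94 to -0.02 (median -0.50), stayed just under its capillary values, from 0.00 to 0.46 (median 0.24). Jun, Jund and Maff differed by -0.42 ± 0.08, -0.48 ± 0.08 and -0.37 ± 0.06.

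Fosb differed between HEC of different tissues. It read 0.17, 0.47, 0.19 and 0.13 in peripheral HEC, -0.41 and -0.37 (MAdCAM1+/PNAd+) and -0.23 and -0.24 (MAdCAM1+) in mesenteric HEC, and -0.76, -0.67 and -0.55 in Peyer's patch HEC. These 3 sets of values did not overlap and ran from peripheral nodes, highest, to Peyer's patches, lowest. Capillary values were 0.51, 0.42 and 0.41 (peripheral), 0.35 and 0.41 (mesenteric) and 0.11, 0.18 and -0.07 (Peyer's patch). The tissue difference among HEC was -0.90 ± 0.09 for Peyer's patches against peripheral nodes (adjusted p = 5.41e-06) and -0.55 ± 0.08 for mesenteric against peripheral nodes (adjusted p = 0.000896), and these comparisons share the peripheral arrays. Fosb was also lower in Peyer's patch than peripheral capillaries, by a smaller amount (-0.37 ± 0.10, adjusted p = 0.0341), a call lost in 9 of 28 alternatives, among them those without any single peripheral capillary array, without peripheral capillary arrays 1 and 2 together, and without Peyer's patch capillary array 1 or 3.

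Atf3, which stress kinases and the unfolded protein response induce, read 0.30, -0.07 and 0.09 (peripheral), 0.70 and 0.54 (mesenteric) and 0.73, 0.61 and 0.53 (Peyer's patch) in capillary cells. Its HEC values were -0.08, 0.00, -0.01 and -0.04 (peripheral), 0.19 and 0.03 (mesenteric MAdCAM1+/PNAd+), 0.23 and -0.01 (mesenteric MAdCAM1+) and -0.61, -0.87 and -0.07 (Peyer's patch). In peripheral nodes HEC and capillary values overlapped, whereas in the other tissues each HEC value was below each capillary value. The difference was -1.14 ± 0.15 in Peyer's patches and -0.14 ± 0.14 in peripheral nodes, where it did not pass (adjusted p = 0.487).

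Klf2 and Klf4 encode the zinc finger factors that flow maintains in endothelium, and Klf2 is a known inducer of the nitric oxide synthase gene Nos3 and the anticoagulant receptor gene Thbd. Klf2 was lower in HEC, with a difference of -1.14 ± 0.11, and so was Klf4, with -0.98 ± 0.09 (adjusted p = 2.23e-07 and 2.02e-07). Klf2 values ran from -1.35 to 0.00 (median -0.49) in HEC and from 0.23 to 0.89 (median 0.56) in capillary cells. Klf4 read 0.45, 0.31 and 0.67 (peripheral), 0.29 and 0.74 (mesenteric) and 0.26, 0.63 and 0.54 (Peyer's patch) in capillary cells and -0.41, -0.03, -0.51 and -0.21 (peripheral), -0.65 and -0.23 (mesenteric MAdCAM1+/PNAd+), -0.36 and -0.14 (mesenteric MAdCAM1+) and -1.03, -0.75 and -0.69 (Peyer's patch) in HEC. Neither gene's HEC and capillary arrays overlapped, and the Peyer's patch HEC arrays were the lowest for Klf4. In Peyer's patch against peripheral HEC, Klf4 differed by -0.53 ± 0.15 (adjusted p = 0.0447), a call lost in 13 of 28 alternatives.

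Klf6, a related factor induced by injury, was called higher in peripheral HEC. It read 0.17, 0.09, 0.28 and 0.16 in peripheral HEC and -0.13, -0.11 and -0.26 in peripheral capillary cells, without overlap. The difference was 0.34 ± 0.11 (adjusted p = 0.0293) and was not called without capillary array 2 or 3 or HEC array 1, 3 or 4 of that tissue, or without capillary arrays 1 and 2 together (0.43). In mesenteric nodes and Peyer's patches it was -0.03 ± 0.12 and 0.02 ± 0.12, which did not pass (adjusted p = 0.957 and 0.933). The tissues were not shown to differ, since the interactions of mesenteric nodes and of Peyer's patches with peripheral nodes, -0.37 ± 0.16 and -0.32 ± 0.16, did not pass (adjusted p = 0.743 and 0.283).

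A list of 23 other measured genes was drawn up for flow and KLF targets and for genes that relay flow to Klf2. Of these, 12 were lower and 5 higher in HEC as the mean over tissues. Of all genes 15.9% were lower and 18% higher, so the higher count was near its background and the lower count above it. Thbd differed by -2.48 ± 0.09, Slc9a3r2, which encodes a scaffold of membrane transporters, by -1.72 ± 0.10 and Timp3, a metalloproteinase inhibitor gene, by -1.68 ± 0.10. The prostaglandin synthase gene Ptgds was higher (1.17 ± 0.11), as were Cnp (0.70 ± 0.10) and the quinone reductase gene Nqo1 (0.49 ± 0.13). Cnp encodes a cyclic nucleotide phosphodiesterase, which is not such a target, but it was on the list and is in these counts. The list median was -0.33.

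The feedback genes encode proteins that shut the early response down, and 6 of 8 were lower in HEC as the mean over tissues, against 15.9% of all genes. Btg2, an antiproliferative factor that recruits the mRNA deadenylase complex, led this group. It read 0.34, -0.06 and 0.40 (peripheral), 0.64 and 0.84 (mesenteric) and 0.46, 0.78 and 0.65 (Peyer's patch) in capillary cells. In HEC it read -0.56, -0.68, -1.27 and -0.62 (peripheral), -0.90 and -0.75 (mesenteric MAdCAM1+/PNAd+), -0.67 and -0.54 (mesenteric MAdCAM1+) and -1.64, -1.65 and -1.25 (Peyer's patch). Every HEC value was below every capillary value, and the 3 Peyer's patch HEC arrays and peripheral HEC array 3 were lower than the rest. The difference was -1.54 ± 0.10 (adjusted p = 1.13e-09), and it was -1.01 ± 0.16 in the peripheral, -1.45 ± 0.18 in the mesenteric and -2.15 ± 0.17 in the Peyer's patch sorts.

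The Btg2 promoter is shown as one of 4 among the 30 genes, with Dusp1, Maff and Ppp1r15a, that held the whole CREB site TGACGTCA, present in 1.79% of all promoters on either strand and overlapping the shorter TGACG. Capitals mark it in chr1:134079106-134079405 on the minus strand.
Btg2: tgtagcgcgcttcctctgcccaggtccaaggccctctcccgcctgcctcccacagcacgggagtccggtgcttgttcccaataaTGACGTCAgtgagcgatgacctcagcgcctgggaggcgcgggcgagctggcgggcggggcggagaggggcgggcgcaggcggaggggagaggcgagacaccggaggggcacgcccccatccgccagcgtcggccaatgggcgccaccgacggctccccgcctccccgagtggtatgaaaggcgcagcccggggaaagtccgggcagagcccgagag
All 4 genes were lower in HEC as the mean over tissues, where 15.9% of all genes were called lower.

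Dusp1, a phosphatase that switches off the stress kinases, differed by -0.94 ± 0.07, with HEC values from -1.22 to -0.34 (median -0.63) and capillary values from -0.10 to 0.39 (median 0.30). Zfp36 differed by -0.85 ± 0.07, with HEC values from -0.63 to 0.13 (median -0.26) and capillary values from 0.20 to 0.82 (median 0.64). Both were called lower in each tissue, and neither overlapped. Nfkbiz, an atypical NF-kB regulator, was not called, at 0.11 ± 0.10 (adjusted p = 0.45).

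Ppp1r15a (GADD34), which directs a phosphatase to restart translation after stress, read 0.34, 0.17 and 0.40 (peripheral), 0.71 and 0.61 (mesenteric) and 0.92, 1.07 and 0.89 (Peyer's patch) in capillary cells. The HEC arrays gave 0.10, 0.07, 0.05 and -0.22 (peripheral), 0.18 and -0.02 (mesenteric MAdCAM1+/PNAd+), 0.35 and 0.36 (mesenteric MAdCAM1+) and -0.29, -0.44 and -0.03 (Peyer's patch). The HEC values were lower without overlap in each tissue, and the gap was widest in Peyer's patches (-1.21 ± 0.11). It was -0.44 ± 0.12 in mesenteric nodes, and in peripheral nodes -0.30 ± 0.11 did not pass (adjusted p = 0.0514).

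Gadd45g and Gadd45b encode stress proteins that bind a kinase upstream of p38 and JNK. Gadd45g read -1.11, -0.29 and -0.72 in peripheral, 0.49 and 0.41 in mesenteric and 2.02, 1.65 and 2.13 in Peyer's patch capillary cells. These 3 groups did not overlap and rose in that order. Its HEC values were -0.50, -0.08, 0.00 and 0.17 (peripheral), 0.15 and 0.31 (mesenteric MAdCAM1+/PNAd+), 0.31 and 0.23 (mesenteric MAdCAM1+) and 0.01, -0.20 and 0.16 (Peyer's patch), and those of the 3 tissues overlapped. Gadd45g was 2.64 ± 0.19 higher in Peyer's patch than in peripheral capillaries (adjusted p = 1.06e-07), a 6.24-fold difference.

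Against capillary cells of its own tissue, Gadd45g was higher in peripheral HEC (0.60 ± 0.18, adjusted p = 0.0185) and lower in Peyer's patch HEC (-1.95 ± 0.19, adjusted p = 5.36e-07). The peripheral call was lost without capillary array 1 (0.40), capillary array 3 (0.60), capillary arrays 1 and 2 together (0.61) or HEC array 4 (0.51), and with only the compared groups fitted. In mesenteric nodes the difference of -0.20 ± 0.20 did not pass (adjusted p = 0.663). Gadd45b differed by -1.10 ± 0.15 in Peyer's patches and by -0.08 ± 0.14 in peripheral nodes, where it did not pass (adjusted p = 0.713).

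Socs3, an inhibitor of cytokine signalling through JAK and STAT proteins, showed a like order among capillaries. It read -0.45, -0.35 and -0.24 (peripheral), 0.36 and 0.41 (mesenteric) and 0.76, 1.23 and 1.31 (Peyer's patch) in capillary cells and -0.04, 0.27, -0.18 and -0.16 (peripheral), 0.10 and 0.54 (mesenteric MAdCAM1+/PNAd+), 0.16 and 0.62 (mesenteric MAdCAM1+) and 0.37, -0.04 and 0.28 (Peyer's patch) in HEC. Peyer's patch capillaries were the highest group and peripheral capillaries the lowest, with a difference of 1.45 ± 0.17 (adjusted p = 3.46e-05). Its 2 probe sets gave 1.61 and 1.30 for this difference. As the mean over tissues, HEC minus capillary was -0.20 ± 0.10, which did not pass (adjusted p = 0.133), while it was lower in Peyer's patch HEC (-0.90 ± 0.17, adjusted p = 0.000846).

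**Figure D4:**
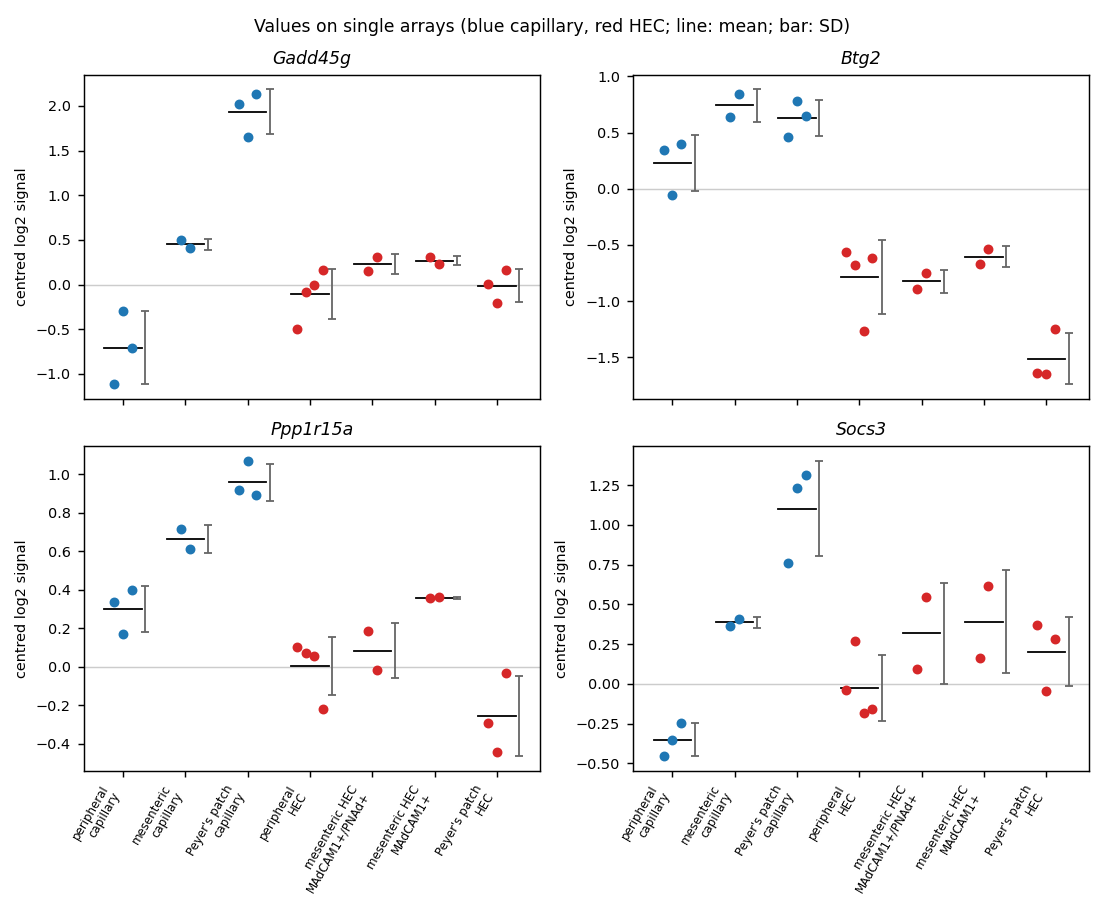
Centred log2 signal of Gadd45g, Btg2, Ppp1r15a and Socs3 on single arrays by group (blue capillary, red HEC), with the group mean as a line and the SD as a bar. Gadd45g spans -1.11 to 2.13 across capillary arrays and -0.50 to 0.31 across HEC arrays, and Btg2 is lowest in Peyer's patch HEC (-1.65 to -1.25).

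Of the 7 remaining early genes, 4 were lower in HEC as the mean over tissues and 1 was higher, against 15.9% of all genes lower and 18% higher. Rhob, a small GTPase of endosomes and the cell cortex, read 0.22, -0.09 and 0.74 (peripheral), 0.25 and 1.07 (mesenteric) and 0.00, 0.63 and 0.22 (Peyer's patch) in capillary cells. In HEC it read -1.61, -1.43, -1.68 and -0.95 (peripheral), -0.94 and -0.59 (mesenteric MAdCAM1+/PNAd+), -0.88 and -0.55 (mesenteric MAdCAM1+) and -1.20, -1.63 and -0.35 (Peyer's patch). The groups did not overlap although both spread widely, and the difference was -1.49 ± 0.17 (adjusted p = 2.43e-06). Sgk1, a kinase of ion transport induced by serum and glucocorticoids, differed by -1.29 ± 0.10, with HEC values from -0.57 to 0.16 (median 0.00) and capillary values from 0.61 to 1.43 (median 1.16).

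Ier2, a nuclear protein of the early response, read -0.09, -0.37 and 0.77 (peripheral), 0.32 and 1.17 (mesenteric) and 0.46, 1.35 and 1.11 (Peyer's patch) in capillary cells. The HEC arrays gave -0.81, -0.62, -1.34 and -0.33 (peripheral), -0.87 and 0.01 (mesenteric MAdCAM1+/PNAd+), -0.79 and 0.30 (mesenteric MAdCAM1+) and -1.30, -1.80 and -1.08 (Peyer's patch). Peripheral values overlapped between cell types, mesenteric values lay just apart (0.30 against 0.32), and in Peyer's patches the highest HEC array (-1.08) was far below the lowest capillary array (0.46). Only there did the tissue difference pass (-2.36 ± 0.37, adjusted p = 0.000123). It was -0.88 ± 0.34 in peripheral and -1.08 ± 0.39 in mesenteric nodes (adjusted p = 0.0743 and 0.0778), and the interactions of Peyer's patches with these tissues, -1.49 ± 0.50 and -1.28 ± 0.54, did not pass (adjusted p = 0.122 and 0.59).

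Csrnp1, a nuclear protein induced by axin, was low in Peyer's patch HEC. It read 0.53, 0.38 and 0.23 (peripheral), 0.81 and 0.48 (mesenteric) and 0.66, 0.47 and 0.32 (Peyer's patch) in capillary cells and 0.45, 0.46, 0.17 and 0.23 (peripheral), 0.13 and -0.19 (mesenteric MAdCAM1+/PNAd+), 0.21 and 0.06 (mesenteric MAdCAM1+) and -0.60, -1.03 and -0.24 (Peyer's patch) in HEC. The 3 Peyer's patch HEC arrays were the lowest of all 19, and peripheral HEC overlapped peripheral capillaries. The difference between Peyer's patch and peripheral HEC was -0.95 ± 0.16 (adjusted p = 0.000906).

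Ier5, a coactivator of HSF1, was the gene called higher. It read -0.20, -0.14 and -0.05 (peripheral), 0.01 and 0.09 (mesenteric) and 0.07, 0.25 and 0.29 (Peyer's patch) in capillary cells and 0.21, 0.21, 0.50 and 0.18 (peripheral), 0.22 and 0.19 (mesenteric MAdCAM1+/PNAd+), 0.21 and 0.28 (mesenteric MAdCAM1+) and 0.15, 0.00 and 0.08 (Peyer's patch) in HEC. In both kinds of lymph node all HEC values were above all capillary values. The peripheral difference was 0.41 ± 0.09 (adjusted p = 0.00264), lost without capillary arrays 1 and 2 (0.32), and the mesenteric one, 0.18 ± 0.10, did not pass (adjusted p = 0.313). The mean over tissues was 0.15 ± 0.05 (adjusted p = 0.0409) and lost its call in 14 of 26 alternatives. Myc and Ier3 were not called in that comparison, at 0.22 ± 0.14 and -0.06 ± 0.08 (adjusted p = 0.259 and 0.592).

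Of the 5 measured heat shock genes, 4 were lower in HEC as the mean over tissues, against 15.9% of all genes. Hspa1a, the inducible HSP70 chaperone, was far ahead of the others. It read -0.41, 0.43 and 0.08 (peripheral), 1.43 and 1.07 (mesenteric) and 1.15, 1.36 and 1.20 (Peyer's patch) in capillary cells. Its HEC values were -3.10, -2.20, -2.0 and -2.22 (peripheral), 0.32 and 0.10 (mesenteric MAdCAM1+/PNAd+), 0.36 and 0.10 (mesenteric MAdCAM1+) and -0.49, -0.54 and -0.17 (Peyer's patch). In each tissue the HEC arrays lay below the capillary arrays, but mesenteric HEC overlapped peripheral capillaries, and the 4 peripheral HEC arrays were the lowest of all, the highest at -2.0 against -0.54 for the next array. The difference was -1.69 ± 0.14 as the mean over tissues (adjusted p = 2.17e-08), and -2.42 ± 0.22 in the peripheral, -1.03 ± 0.25 in the mesenteric and -1.63 ± 0.24 in the Peyer's patch sorts. The mesenteric call did not hold without capillary array 1 of that tissue (-0.85).

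Between HEC of different tissues, Hspa1a was 2.60 ± 0.21 higher in mesenteric than in peripheral nodes (adjusted p = 8.76e-07), or 6.08-fold. It was 1.99 ± 0.22 higher in Peyer's patches than in peripheral nodes (adjusted p = 1.77e-05), or 3.96-fold. Both comparisons use the same 4 peripheral HEC arrays. Peyer's patch capillaries exceeded peripheral capillaries by 1.20 ± 0.24 (adjusted p = 0.00441), a call lost without peripheral capillary arrays 1 and 2 (1.16). Hspa1a and Hspa1b are near-identical copies, and the probe set shared by both read -2.76, -1.72, -1.56 and -2.01 in peripheral HEC and differed by -1.27 between HEC and capillary cells.

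The Hspa1a promoter is shown because its window is nearly that of its copy, identical to the Hspa1b window at 296 of 300 bases (98.7%). GAANNTTC, a pair of the inverted GAA units that HSF1 binds, was present in 5 of the 30 genes. Start by start it was in 7 of their 46 promoters, against 7.86% of all promoters on either strand. The longer heat shock element, with a further unit, was found in 0.603% of all promoters and here in Hsph1 alone. Capitals mark the pair in chr17:34972107-34972406 on the minus strand.
Hspa1a: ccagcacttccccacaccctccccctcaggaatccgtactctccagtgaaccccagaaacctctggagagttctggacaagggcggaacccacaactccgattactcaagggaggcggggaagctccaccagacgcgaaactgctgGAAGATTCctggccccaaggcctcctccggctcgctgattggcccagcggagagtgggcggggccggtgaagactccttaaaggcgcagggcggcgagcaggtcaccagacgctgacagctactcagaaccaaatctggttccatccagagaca
Hspa1a was lower in HEC of each tissue.

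Dnajb1, the HSP40 cochaperone that delivers substrates to HSP70, read -0.11, -0.30 and -0.21 (peripheral), 0.64 and 0.28 (mesenteric) and 0.52, 0.75 and 0.79 (Peyer's patch) in capillary cells. The HEC arrays gave -0.34, -0.67, -0.41 and -0.40 (peripheral), 0.38 and 0.05 (mesenteric MAdCAM1+/PNAd+), 0.64 and 0.29 (mesenteric MAdCAM1+) and -0.21, -0.34 and -0.07 (Peyer's patch). Peripheral arrays of both cell types were all below 0 and mesenteric arrays of both all above 0. The HEC difference was -0.42 ± 0.08 as the mean over tissues (adjusted p = 0.00029) and -0.89 ± 0.13 in Peyer's patches, where it passed. It was -0.25 ± 0.12 in peripheral nodes and -0.12 ± 0.14 in mesenteric nodes (adjusted p = 0.156 and 0.723), but the interactions of Peyer's patches with these tissues, -0.64 ± 0.18 and -0.76 ± 0.19, did not pass (adjusted p = 0.0593 and 0.102). Mesenteric HEC exceeded peripheral HEC by 0.79 ± 0.11 (adjusted p = 0.000539), and Peyer's patch capillaries exceeded peripheral capillaries by 0.89 ± 0.13 (adjusted p = 0.00036).

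Hsph1, an HSP110 that recharges HSP70, read -0.62, -0.33 and -0.79 (peripheral), 0.62 and 0.36 (mesenteric) and 0.21, 0.69 and 0.71 (Peyer's patch) in capillary cells and -1.03, -0.64, -0.24 and -0.91 (peripheral), 0.25 and 0.43 (mesenteric MAdCAM1+/PNAd+), 0.17 and 0.32 (mesenteric MAdCAM1+) and -0.31, -0.89 and 0.14 (Peyer's patch) in HEC. All 7 peripheral arrays were below 0, and HEC and capillary values of that tissue overlapped. The mean difference of -0.40 ± 0.13 passed narrowly (adjusted p = 0.026) and lost its call in 5 of 27 alternatives, the 2 peripheral capillary arrays left out among them, with values down to -0.32. Mesenteric HEC exceeded peripheral HEC by 0.99 ± 0.20 (adjusted p = 0.00949), lost without MAdCAM1+/PNAd+ array 2 (0.95), and Peyer's patch exceeded peripheral capillaries by 1.12 ± 0.23 (adjusted p = 0.00657), a call lost without peripheral capillary arrays 1 and 2 (1.33).

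Hsp90aa1, the inducible HSP90, read -0.16, 0.11 and -0.24 (peripheral), 0.27 and 0.09 (mesenteric) and 0.07, 0.20 and 0.33 (Peyer's patch) in capillary cells and -0.57, -0.69, -0.28 and -0.56 (peripheral), 0.03 and -0.21 (mesenteric MAdCAM1+/PNAd+), -0.02 and -0.12 (mesenteric MAdCAM1+) and -0.34, -0.60 and 0.04 (Peyer's patch) in HEC. It was lower in HEC, with a mean difference over tissues of -0.40 ± 0.09 (adjusted p = 0.00138), and its 3 probe sets gave -0.39, -0.39 and -0.41. Hspa8, the constitutive HSP70, read 0.11, 0.22 and -0.16 (peripheral), 0.30 and -0.01 (mesenteric) and 0.30, 0.10 and -0.02 (Peyer's patch) in capillary cells and 0.04, -0.08, 0.09 and -0.35 (peripheral), 0.07 and -0.11 (mesenteric MAdCAM1+/PNAd+), 0.15 and -0.09 (mesenteric MAdCAM1+) and 0.09, -0.10 and 0.13 (Peyer's patch) in HEC. Its values overlapped between cell types in every tissue, and it was called in none of the 14 comparisons. The mean difference was -0.12 ± 0.08 (adjusted p = 0.29). Probe sets that Hspa8 shares with Snord14c and Snord14d, left out by the rule of a single symbol, differed by -1.26 and -1.25. Which of these genes gave that lower signal in HEC was not tested.

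**Figure D5:**
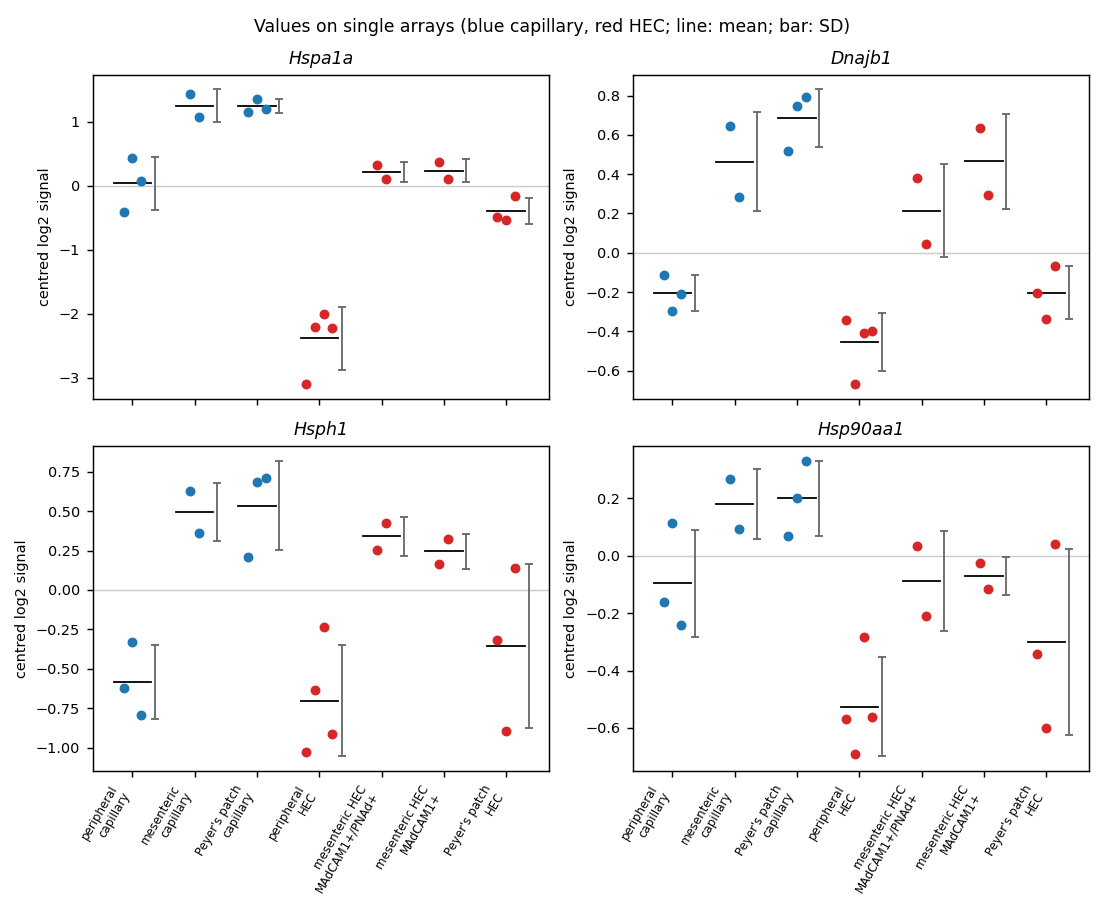
Centred log2 signal of Hspa1a, Dnajb1, Hsph1 and Hsp90aa1 on single arrays by group (blue capillary, red HEC), with the group mean as a line and the SD as a bar. Peripheral HEC lie lowest for Hspa1a (-3.10 to -2.0), and peripheral arrays of both cell types lie below the mesenteric ones for Dnajb1.

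Of 25 other measured chaperones and HSF1 targets, 9 were lower and 5 higher in HEC as the mean over tissues, against 15.9% of all genes lower and 18% higher, with a list median of -0.026. The count of higher genes was near that background. The small heat shock gene Hspb1 (-1.14 ± 0.09), the collagen chaperone Serpinh1 (-1.05 ± 0.06) and Hspa2 (-0.90 ± 0.09) were lower. The mitochondrial chaperones Hspa9 (0.60 ± 0.12) and Hspd1 (0.55 ± 0.13) and the chaperonin subunit Tcp1 (0.57 ± 0.11) had the 3 largest differences among the 5 higher genes. In mesenteric against peripheral HEC, 4 of the 25 were higher and 0 lower, against 2.69% of all genes called, led by Hspb1 (1.06 ± 0.14), Bag3, a cochaperone of HSP70 (0.47 ± 0.09), and Dnaja4 (0.38 ± 0.09). Among the 13 measured factors and kinases that act through SRF or CREB, or that destroy early mRNAs as Zfp36 does, 4 were lower and 1 higher as the mean over tissues. These 5 are 38.5% of that list, near the 33.9% of all genes called.

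Of 44 other measured immediate-early genes, 26 were lower and 5 higher in HEC as the mean over tissues, with a list median of -0.46. The lower count was above the 15.9% of all genes called lower, and the higher count was below the 18% called higher. The cytokine gene Il6 (-2.85 ± 0.23), the kinase phosphatase gene Dusp5 (-1.49 ± 0.06) and the polo-like kinase gene Plk2 (-1.46 ± 0.12) were lower. Of the 5 higher genes, the cyclooxygenase gene Ptgs2 had the largest difference (3.65 ± 0.17, adjusted p = 1.98e-11), followed by Gem, a GTPase of the RAS superfamily (0.98 ± 0.10), and Rgs2, a brake on G proteins (0.41 ± 0.10).

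Among HEC of different tissues, Peyer's patches against peripheral nodes gave 6 genes of the set lower and 1 higher, against 6.65% of all genes called. The lower genes were Csrnp1, Fosb, Btg2, Klf4, Maff (-0.50 ± 0.10) and Dusp1 (-0.49 ± 0.12), and the higher was Hspa1a. This count rested on single Peyer's patch HEC arrays. It was 4 without array 1, 4 without array 2 and 17 without array 3. The calls for Csrnp1, Fosb, Maff and Hspa1a held in every alternative, while Btg2, Klf4 and Dusp1 lost theirs in some, Btg2 without array 1 (-0.67) or array 2 (-0.66), and Dusp1 without either of those or peripheral HEC array 2 or 4.

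Mesenteric against peripheral HEC gave 3 genes higher, all heat shock genes, and Fosb lower, against 2.69% of all genes. Peyer's patch against mesenteric HEC gave 5 genes lower and 0 higher, against 1.20% of all genes. These were Btg2 (-0.80 ± 0.16), Csrnp1 (-0.68 ± 0.16), Atf3 (-0.63 ± 0.14), Dnajb1 (-0.54 ± 0.12) and Ppp1r15a (-0.48 ± 0.11). None of the 5 held in every alternative. The count was 0 without Peyer's patch HEC array 1 or 2, 10 without array 3, and 1 without any single mesenteric HEC array, without peripheral HEC array 3 or without peripheral capillary arrays 1 and 2 together. It was 2 without peripheral HEC array 1 or 4, peripheral capillary array 3, or Peyer's patch capillary array 2 or 3, and 3 without peripheral capillary array 2.

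Peyer's patch HEC array 3 was above its group mean for 27 of the 31 early genes (median deviation 0.22) and for 5 of 5 heat shock genes. Array 2 was below it for 23 and 5, and array 1 for 22 and 3. Of all 19938 genes, array 3 was above for 9088 and array 2 below for 9814. Deviations within a group balance out, so the counts of its arrays are linked. The median deviations of arrays 3 and 2 over all genes were -0.031 and 0.0048. The SD of the difference between these arrays over all genes was 0.450, against 0.196 to 0.312 for other pairs within a group. Its part in the HEC comparisons between tissues was not tested beyond leaving arrays out.

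Capillary cells of Peyer's patches against peripheral nodes gave 10 genes of the set higher and 1 lower, against 4.64% of all genes. Feedback genes were 5 of the 10 and heat shock genes 3. After Gadd45g, Socs3, Hspa1a and Hsph1 came Egr2, Dnajb1, Ppp1r15a (0.66 ± 0.11), Ier3 (0.61 ± 0.13), Gadd45b (0.54 ± 0.15) and Zfp36 (0.48 ± 0.11). The count was 7 without peripheral capillary array 1, and 3 without arrays 1 and 2, which left Gadd45g, Socs3 and Dnajb1.

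Mesenteric against peripheral capillaries gave 1 call, Gadd45g (1.16 ± 0.21, adjusted p = 0.0198), against 0.291% of all genes. It was lost without either mesenteric capillary array, without peripheral capillary array 1 or 3, or without peripheral capillary arrays 1 and 2 together. Although a single gene passed, 33 of the 36 genes were above 0 (91.7%, against 46.6% of all genes), with a median of 0.27. The count was 2 without peripheral capillary array 2 or peripheral HEC array 1. Peyer's patch against mesenteric capillaries gave Gadd45g (1.49 ± 0.21, adjusted p = 0.000609) and Egr2 higher, against 1.86% of all genes, and 1 call when mesenteric capillary array 2, or array 2 or 3 of the Peyer's patch capillaries, was left out.

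Whether the gap between HEC and capillary cells differed by tissue was tested as an interaction. In Peyer's patches against peripheral nodes, 10 genes had a lower HEC minus capillary difference and 0 a higher one, against 4.05% of all genes. Feedback genes made up 6 of the 10. They were Gadd45g (-2.55 ± 0.26, adjusted p = 1.25e-05), Socs3 (-1.22 ± 0.23), Btg2 (-1.13 ± 0.24), Gadd45b (-1.02 ± 0.21), Ppp1r15a (-0.92 ± 0.16) and Zfp36 (-0.66 ± 0.16). The other 4 were Csrnp1 (-1.06 ± 0.23), Atf3 (-1.0 ± 0.21), Ier5 (-0.54 ± 0.13) and Fosb (-0.53 ± 0.13).

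None of the 6 EGR and NR4A genes passed this test, with interactions from -0.77 to 0.21 and a median of -0.16. The interaction count was 18 without Peyer's patch HEC array 3 and 3 without peripheral capillary arrays 1 and 2, and the calls for Gadd45g, Ppp1r15a and Csrnp1 held in every alternative. Against mesenteric nodes, 2 genes passed in Peyer's patches, Gadd45g (-1.75 ± 0.27, adjusted p = 0.0038) and Ppp1r15a (-0.77 ± 0.17, adjusted p = 0.0372), against 0.752% of all genes. The Ppp1r15a call was lost in some alternatives, and 11 of the 19 settings that leave out 1 array gave 1 call. Between mesenteric and peripheral nodes limma called 0 of the 36, against 0.416% of all genes, with 7 at an unadjusted p under 0.05 (6.29% of all genes) and 1 call without peripheral capillary array 1.

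The mesenteric gates were compared directly. MAdCAM1+/PNAd+ minus MAdCAM1+ HEC gave 0 calls among the 36 genes by limma, against 0.0201% of all genes, with 2 at an unadjusted p under 0.05 (1.68% of all genes). Of the 36 genes, 33 were below 0 (91.7%, against 45.2% of all genes), so nearly all read lower in the MAdCAM1+/PNAd+ sorts without passing singly. Nr4a1 was lowest, at -0.63 ± 0.14 (adjusted p = 0.338). With 2 arrays a gate, these shares describe 4 arrays.

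Genes of the set varied more between replicates than most. The median residual SD was 0.210 over the 36 genes and 0.155 over all genes, and 29 of the 36 exceeded the latter. Ier2 lay at percentile 99.7 of all genes, Rhob at 99.0, Nr4a2 at 96.8, Myc at 96.5 and Hspa1a at 96.1.

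Markers of other cells moved with the HEC comparison, where 15.9% of all genes were called lower and 18% higher as the mean over tissues. Of 12 markers of pericytes and smooth muscle, 10 were called lower in HEC and 1 higher, with medians per array from -0.11 to 1.02 in capillary sorts and from -0.86 to -0.39 in HEC sorts. Of 11 B cell markers, 8 were called higher in HEC, with medians from -0.16 to 0.15 in capillary sorts and from 0.04 to 0.71 in HEC sorts. T and NK cell markers were called higher in 5 of 10 and lower in 1. In Peyer's patch against peripheral HEC, 8 of 10 epithelial markers were higher, with medians from 0.43 to 0.86 in Peyer's patch HEC and from -0.24 to -0.05 in peripheral HEC. In that comparison, where 2.16% of all genes were higher and 4.49% lower, 4 of 10 T and NK cell, 5 of 15 pan-endothelial and 3 of 11 B cell markers were lower, and 1 B cell marker was higher. In Peyer's patch against peripheral capillaries, 2 of 10 epithelial markers were higher and 4 of 12 pericyte and smooth muscle markers lower, with 1 higher. Of all genes 2.4% were higher and 2.24% lower there. Pan-endothelial markers were lower in HEC for 11 of 15. The part of these cells in the differences above was not tested.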

How the data were processed

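Per the labels' protocols, RNA of 19 sorted endothelial samples was amplified and labelled for Affymetrix whole-transcript arrays. The deposited values are log2 signals made by the authors, for which the submitters' processing notes name RMA and Partek without a version. They were centred for each probe set (range -4.092 to 6.128, with an exact 0 in 54.5% of probe sets), so absolute level and detection are unknown. RMA compresses large folds. Precision is limited by the number of arrays.

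Of 28856 probe sets, 21789 had 1 symbol, 1621 several and 5446 none. The mean over single-symbol probe sets gave 19938 genes. With limma 3.58.1 in R 4.3.3, lmFit and eBayes were run on 7 group means over the 19 arrays (12 residual degrees of freedom, prior 4.62, prior SD 0.145). There were 14 contrasts, with mesenteric HEC as the mean of both gates. Tests were two-sided with Benjamini-Hochberg adjustment over all genes for each contrast, threshold 0.05, and differences carry the model's SE. The fit was tested on simulated data. No batch is given in the labels.

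The genes of the set, the lists and the alternatives were chosen with earlier results of these data known. Values on single arrays were given for the 8 largest called differences in HEC against capillary cells, the 4 largest in each direction elsewhere, genes called against most of their role group, and all heat shock genes; from other lists, up to 3 called genes in each direction. Egr1, Fos and others were added as ranges. Genes on shared probe sets only, Hspa1b among them, were not analysed here by themselves. Promoters are from RefSeq (GRCm38.p6), and 7 of the 37 genes had none in that table. Figures were drawn with matplotlib 3.10.9. The alternatives were each array left out, a block for the replicate number, peripheral capillary arrays 1 and 2 left out, and the most variable probe set. Others were a second quantile normalization, median centring, array weights, a robust prior for the spread, a range filter, and the compared groups alone. The main fit used no pairing of arrays, and whether any arrays were prepared together was not settled.

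Lists of lymphatic, myeloid, neutrophil and mast cell, fibroblast, and erythroid and platelet markers were also counted in HEC against capillary cells as the mean over tissues. They gave 2 higher and 2 lower of 6, 1 and 1 of 14, 0 and 1 of 10, 0 and 2 of 10, and 1 and 1 of 6. Of all genes 18% were higher and 15.9% lower in that comparison.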

Additional observations from a re-analysis of the deposited data

Results flagged for a closer look

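In peripheral HEC, the only group with 4 arrays and so the only one examined for a single array far from the others by Dixon's ratio, 4 of 36 genes stood out, where chance gives about 1 in 20. Egr3 read 0 on array 2 against -0.45 to -0.41 on the others. Btg2 read -1.27 on array 3 against -0.68 to -0.56. Ier5 read 0.50 on array 3 against 0.18 to 0.21. Ppp1r15a read -0.22 on array 4 against 0.05 to 0.10.

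The HEC minus capillary difference depended on the tissue for 10 genes between Peyer's patches and peripheral nodes, by limma's interaction test. The interaction was -2.55 for Gadd45g, -1.22 for Socs3, -1.13 for Btg2, -1.06 for Csrnp1, -1.02 for Gadd45b, -1.0 for Atf3, -0.92 for Ppp1r15a, -0.66 for Zfp36, -0.54 for Ier5 and -0.53 for Fosb. Between Peyer's patches and mesenteric nodes it was -1.75 for Gadd45g and -0.77 for Ppp1r15a. Gadd45g is the gene whose called difference changed sign, from 0.60 in peripheral nodes to -1.95 in Peyer's patches, and its capillary values moved more than its HEC values.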

How the results depend on the processing

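Of 147 called differences over the 36 genes, 90 were called under every one of the alternatives run, 57 lost the call under at least 1, and 0 reversed. The counts of HEC against capillary cells, as the mean over tissues, in peripheral nodes and in Peyer's patches, stayed within 1.5 times of the reported ones in all of them. The fit of only the compared groups was not run for the mean over tissues, since it uses all groups. Other counts moved. For Peyer's patch against peripheral HEC (7) they were 4 after quantile normalization, 25 with array weights and 4 with only the compared groups. For Peyer's patch against mesenteric HEC (5) they were 3 with the replicate block, 1 without peripheral capillary arrays 1 and 2, 0 after quantile normalization, 1 after median centring, 26 with array weights and 1 with only the compared groups. For Peyer's patch against peripheral capillaries (11) the count was 3 without those 2 arrays. For mesenteric against peripheral capillaries (1) it was 3 with the block, 0 without those 2 arrays, 4 after quantile normalization, 3 with array weights, 0 with only the compared groups and 2 with the range filter. For Peyer's patch against mesenteric capillaries (2) it was 1 with only the compared groups. For the interaction of Peyer's patches with peripheral nodes (10) it was 3 without those 2 arrays and 22 with array weights. For that with mesenteric nodes (2) it was 1 with the block, without those 2 arrays, after quantile normalization, after median centring, with only the compared groups and with the range filter, and 10 with array weights. For that of mesenteric with peripheral nodes (0) it was 1 with the range filter. The array weights stopped before convergence. The cause of these moves was not tested.

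Leaving out 1 array in turn gave 28 to 31 calls for the mean over tissues, 16 to 23 in peripheral nodes, 13 to 24 in mesenteric nodes and 26 to 31 in Peyer's patches. Among HEC it gave 4 to 17 for Peyer's patches against peripheral nodes, 3 to 5 for mesenteric against peripheral nodes and 0 to 10 for Peyer's patches against mesenteric nodes. Among capillary cells it gave 7 to 12, 0 to 2 for mesenteric against peripheral nodes, and 1 to 3 for Peyer's patches against mesenteric nodes. The interactions gave 7 to 18, 0 to 1 and 1 to 3, and the mesenteric gates 0 to 0.

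The deviations of same-numbered arrays of different groups had a median correlation of 0.0834 over 41 pairs (lowest -0.426, 17 over 0.1). For differently numbered arrays it was -0.0132 over 112 pairs (37 over 0.1). Only equal numbers were matched, so mesenteric MAdCAM1+ arrays 3 and 4 were not set against mesenteric arrays 1 and 2. The median heat shock deviation was 0.16, 0.11 and 0.12 on mesenteric capillary array 1, MAdCAM1+/PNAd+ array 1 and MAdCAM1+ array 3. Whether such arrays share a preparation was not tested, and the replicate block is given here only. Other scalings moved no all-gene median by over 0.1. The limits are 2 to 4 arrays a group, centred values that hide signal over background, and p-values that cover only the spread between these arrays.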

Other observations

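Ier2 and Nr4a2 were among the most variable genes of the set within groups, and only their extreme arrays were compared. In 5 of 7 groups the array with the highest Ier2 value had the lowest Nr4a2 value, including the 3 pairs of mesenteric arrays. With 2 arrays in a group the orders can only be opposite or the same, so such a match is easily met. The mesenteric arrays concerned were capillary array 2, MAdCAM1+/PNAd+ array 2 and MAdCAM1+ array 4. If these were prepared together, the 3 pairs are not separate observations. On the mesenteric capillary arrays Ier2 read 0.32 and 1.17 while Nr4a2 read 1.91 and 1.03. In the exceptions, both from Peyer's patches, the arrays differed, and Peyer's patch HEC array 3 was the highest for both genes (-1.08 and -0.03). The full orders were not opposite, since peripheral HEC arrays 1, 2 and 3 kept the same order for both genes. This pair was chosen after its values were seen, the arrays are few, and no test was run.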
